A study of Mus musculus with 27 samples.

Results

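The 38 genes described here are expressed mainly in neurons and were followed in mouse morulae, which hold no neurons. They were taken by name from a table of 55367 genes counted in 27 libraries. The libraries were prepared from polyadenylated RNA of pools of 15 to 20 wildtype embryos, cultured in KSOM medium and harvested at E2.75 (E, embryonic day), with 3 libraries in each of 9 groups. In the inhibitor family, embryos were treated from E2.5 with Vehicle, with SAHA at 500 nM or TSA at 50 nM, which inhibit histone deacetylases, or with A485 at 10 uM, which inhibits the acetyltransferase activity of p300 and CBP. In the siRNA family, zygotes were injected at E0.5 with siControl, siP300, siKat6a, siKat6b or siComb, and what siComb contained is not stated in the labels. The doses are those in the file headers. SAHA and TSA were given at different doses and were not compared with each other. The series calls the pools biological replicates without saying whether they were collected separately, so the p-values reflect variation among these pools that may be technical.

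Histone acetylation marks active chromatin. Acetyltransferases such as p300, CBP, KAT6A and KAT6B add it and deacetylases remove it. Many neuronal genes are held silent in other cells by the repressor REST, which binds the RE1 element and recruits corepressors that carry histone deacetylases. The genes fall into groups by role: cytoskeletal proteins, kinesin motors, the BEX proteins and UCHL1, synaptic vesicle proteins, glutamate receptor subunits, granins and RNA-binding proteins.

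Library totals ran from 7557591 to 11988857 counts. Levels are given as CPM, counts relative to the gene total of the library, scaled by the trimmed mean of M values (TMM) over all 27 libraries. In bulk pools, a change in the number of cells that express a gene and a change in RNA per cell cannot be told apart. The share of mitochondrially encoded counts was 4.94 to 6.99% with siP300 and 4.86 to 5.41% with siComb against 1.94 to 2.45% with siControl. It was 2.51 to 3.57% with TSA, 2.36 to 2.62% with A485 and 1.61 to 2.16% with SAHA against 0.997 to 1.2% with Vehicle. Of the targets of the siRNAs, Ep300, which encodes p300, stood at 16.4, 11.2 and 27.8 CPM in the siP300 libraries against 22.8, 23.4 and 28.8 with siControl, and the difference was not called (log2 −0.43 ± 0.29, SE; edgeR adjusted p = 0.259). Kat6a stood at 13.2, 10.3 and 12.8 CPM with siKat6a against 18.2, 15.7 and 16.3, and Kat6b at 66.9, 78.7 and 75.5 CPM with siKat6b against 101, 111 and 114, and both pairs of groups were apart without passing the test (adjusted p = 1 and 0.495). With siComb, Kat6a and Kat6b fell (log2 −0.64 and −1.03; edgeR adjusted p = 0.022 and 0.00814) and Ep300 was not called (log2 −0.15; adjusted p = 0.722). The siComb call of Kat6a was lost without the first siControl library (adjusted p = 0.0814) or the second siComb library (0.0855), under library size alone (0.195), with no filter (0.189) and without 4 libraries with high levels of the retrotransposon MERVL (0.109). With A485, Ep300 rose to 76.5, 56.9 and 41 CPM from 25.1, 23.8 and 26.8 with Vehicle (log2 1.24 ± 0.23, SE; adjusted p = 0.000493), and Kat6b fell (log2 −1.58; adjusted p = 6.26e-05). The third siP300 library lay inside the siControl range for Ep300, and the siRNA groups are named here as the labels give them. Among markers of morula blastomeres, Nanog, a pluripotency factor, stood at 122, 206 and 219 CPM with Vehicle, 179, 129 and 78.1 with SAHA, 14.5, 8.9 and 11.7 with TSA and 2.11, 1.38 and 0.841 with A485. It stood at 201, 207 and 174 CPM with siControl, 109, 21.3 and 61.2 with siP300 and 71.9, 79.2 and 173 with siComb. Nanog fell with TSA, A485 and siP300 (edgeR adjusted p = 7.02e-07, 2.83e-08 and 0.00623) and was not called with SAHA or siComb (adjusted p = 0.263 and 0.101). Sox2 was listed at 0 in every library, but it lies wholly inside another gene of the same strand, a position in which 404 of 432 genes were at 0, so this carries no information on its level. Of 7 further genes that define neurons (Rbfox3, Slc17a7, Slc17a6, Gad1, Gad2, Slc32a1 and Camk2a), the highest value in any library was 8.65 CPM, for Gad2 in 1 siP300 library, and outside siP300 none exceeded 3.17 CPM.

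More of the neuronal genes rose than fell with SAHA, TSA, A485, siP300 and siComb, and 0 were called with siKat6a or siKat6b. The summed level of the 38 genes was 264 to 319.9 CPM in the Vehicle libraries, 547 to 612 with SAHA, 903 to 974 with TSA and 442 to 649.6 with A485. It was 393 to 405 CPM with siControl, 768 to 869 with siP300, 719 to 891 with siComb, 387 to 402 with siKat6a and 444 to 560.2 with siKat6b. The siKat6a range overlapped that of siControl, and the other 6 treated groups lay above their controls. Mapt, Uchl1 and Stmn3 alone made up 71.8 to 80.5% of the sum with Vehicle and 71.8 to 76.3% with siControl. They made up 48.3 to 71.3% over the SAHA, TSA and A485 libraries. Their part was 48.4 to 61.1% over the siP300 and siComb libraries and 68.4 to 74.8% with siKat6b. The map of levels by library shows the genes that carry these sums.

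**Figure D1:**
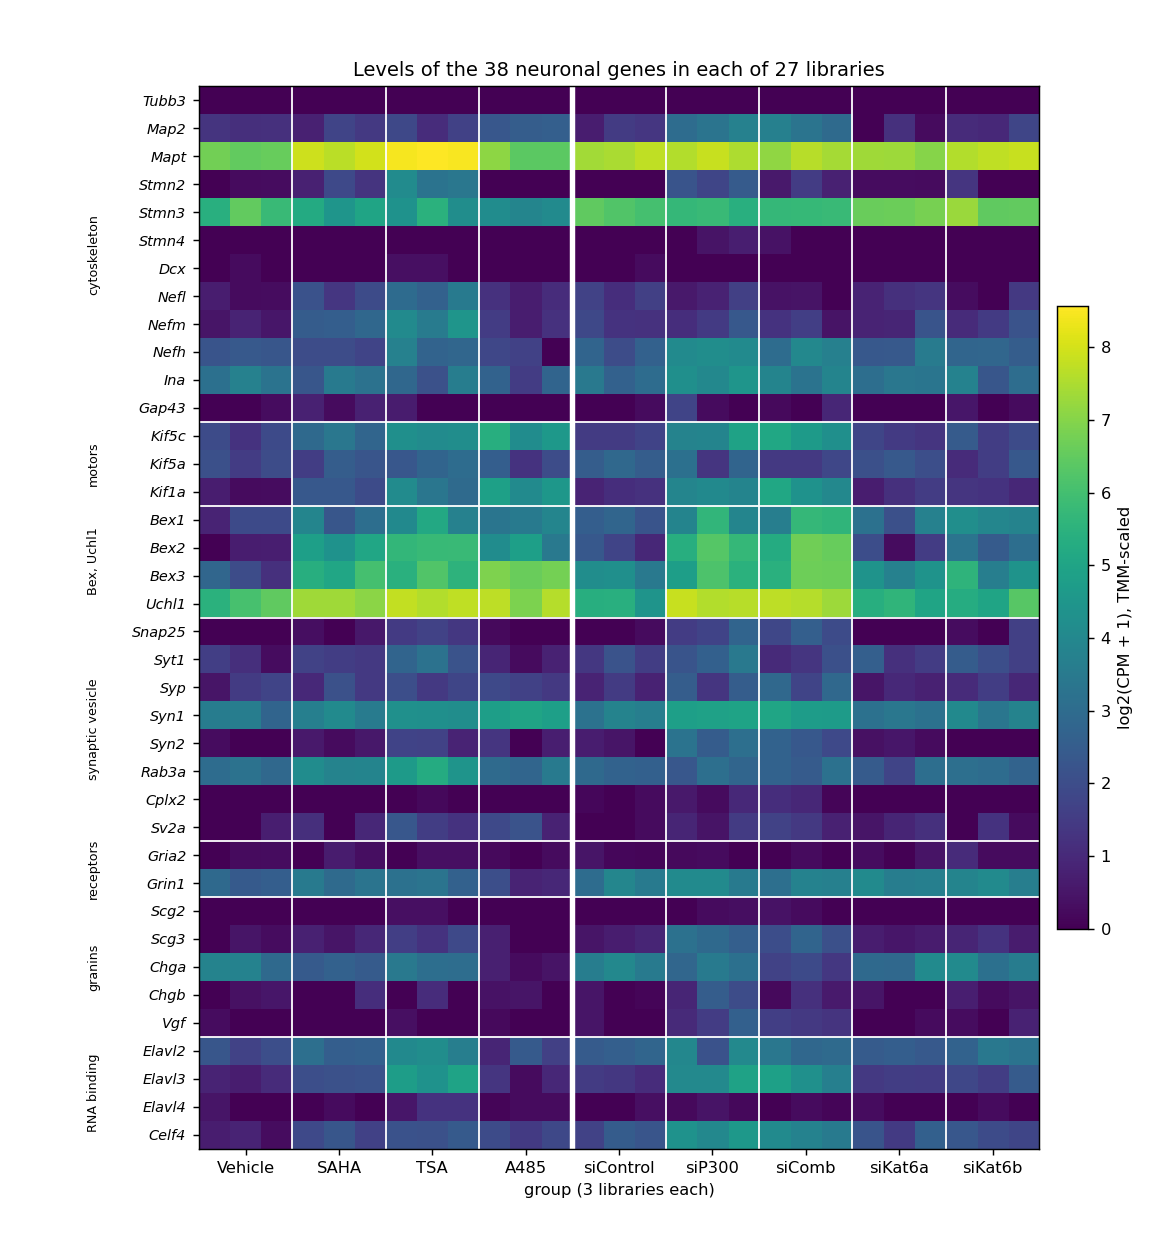
Level of each of the 38 neuronal genes (rows, by role) in each of the 27 libraries (columns, 3 a group), as log2(CPM + 1) on the color scale, with TMM-scaled CPM. Bex2, Kif1a and Kif5c are brighter in the SAHA, TSA, A485, siP300 and siComb libraries than in their controls, and Tubb3 is at 0 throughout.

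Treated groups were set against their control by edgeR's quasi-likelihood test over all genes, with Benjamini-Hochberg adjustment and a threshold of 0.05. "Rose" and "fell" refer to that test. Of the 38 genes, 28 passed the filter on low counts among the inhibitor libraries and 31 among the siRNA libraries. Tubb3, Stmn4, Gap43, Dcx, Elavl4, Gria2 and Scg2 were tested in neither, and Chgb, Vgf and Cplx2 in the siRNA family alone. With SAHA, 13 of 28 rose and 2 fell, where 20.2% of all 18297 genes tested rose and 14.0% fell. With TSA, 20 of 28 rose and 1 fell, against 31.6% and 26.6% of all genes. With A485, 10 of 28 rose and 3 fell, against 21.4% and 24.2%. With siP300, 21 of 31 rose and 1 fell, where 19.7% of all 19180 genes tested rose and 15.7% fell. With siComb, 18 of 31 rose and 1 fell, against 19.6% and 17.1%. The median log2 fold change of the genes tested was 1.5 with SAHA, 2.60 with TSA, 0.89 with A485, 2.39 with siP300 and 2.16 with siComb, while that of all genes was 0.06, 0.08, −0.06, 0.12 and 0.09. With Snap25, which had 0 counts in every Vehicle library, set at its lower bound, the SAHA median was 1.27, and such bounds did not move the other 4 medians.

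A gene at 0 in its control can pass the filter only where it is high, so these shares were also read for genes above the filter level in every control library. Of 14 such neuronal genes in the inhibitor family, 5 rose and 2 fell with SAHA, 7 rose and 1 fell with TSA, and 5 rose and 3 fell with A485. Of all such genes, 12.8% rose and 19.7% fell with SAHA, 20.1% rose and 37.0% fell with TSA, and 23.7% rose and 29.1% fell with A485. Of 19 in the siRNA family, 10 rose and 1 fell with siP300 and 8 rose and 1 fell with siComb, where 15.4% and 17.3% of all such genes rose and 21.5% and 23.1% fell. Scaling by library size alone, without TMM, moved the median of all genes up by 0.32 (log2) with siP300 and by 0.26 with siComb. The share of calls that were higher then went from 55.8 to 76.9% with siP300 and from 53.5 to 70.3% with siComb. No neuronal gene changed direction among its calls under any scaling tried. Calls that held in every alternative tried numbered 11 of 15 with SAHA, 18 of 21 with TSA, 12 of 13 with A485, 14 of 22 with siP300 and 16 of 19 with siComb. The same was not counted over all genes, so these numbers have no background. In the siRNA family, the second siP300, the first and the third siKat6b and the second siComb libraries had levels of the retrotransposon MERVL of 795, 910.0, 867 and 871 CPM, where the next highest of the family stood at 126 CPM. How many neuronal genes passed the filter in a refit without these libraries is not given here. The neuronal counts of that refit therefore have no share to set beside those of all genes. Without these 4 libraries 20 neuronal genes rose and 1 fell with siP300, where 17.6% of the 21271 genes then tested rose and 15.0% fell. With siComb, 18 rose and 4 fell, against 17.0% and 15.0% of those genes.

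**Figure D2:**
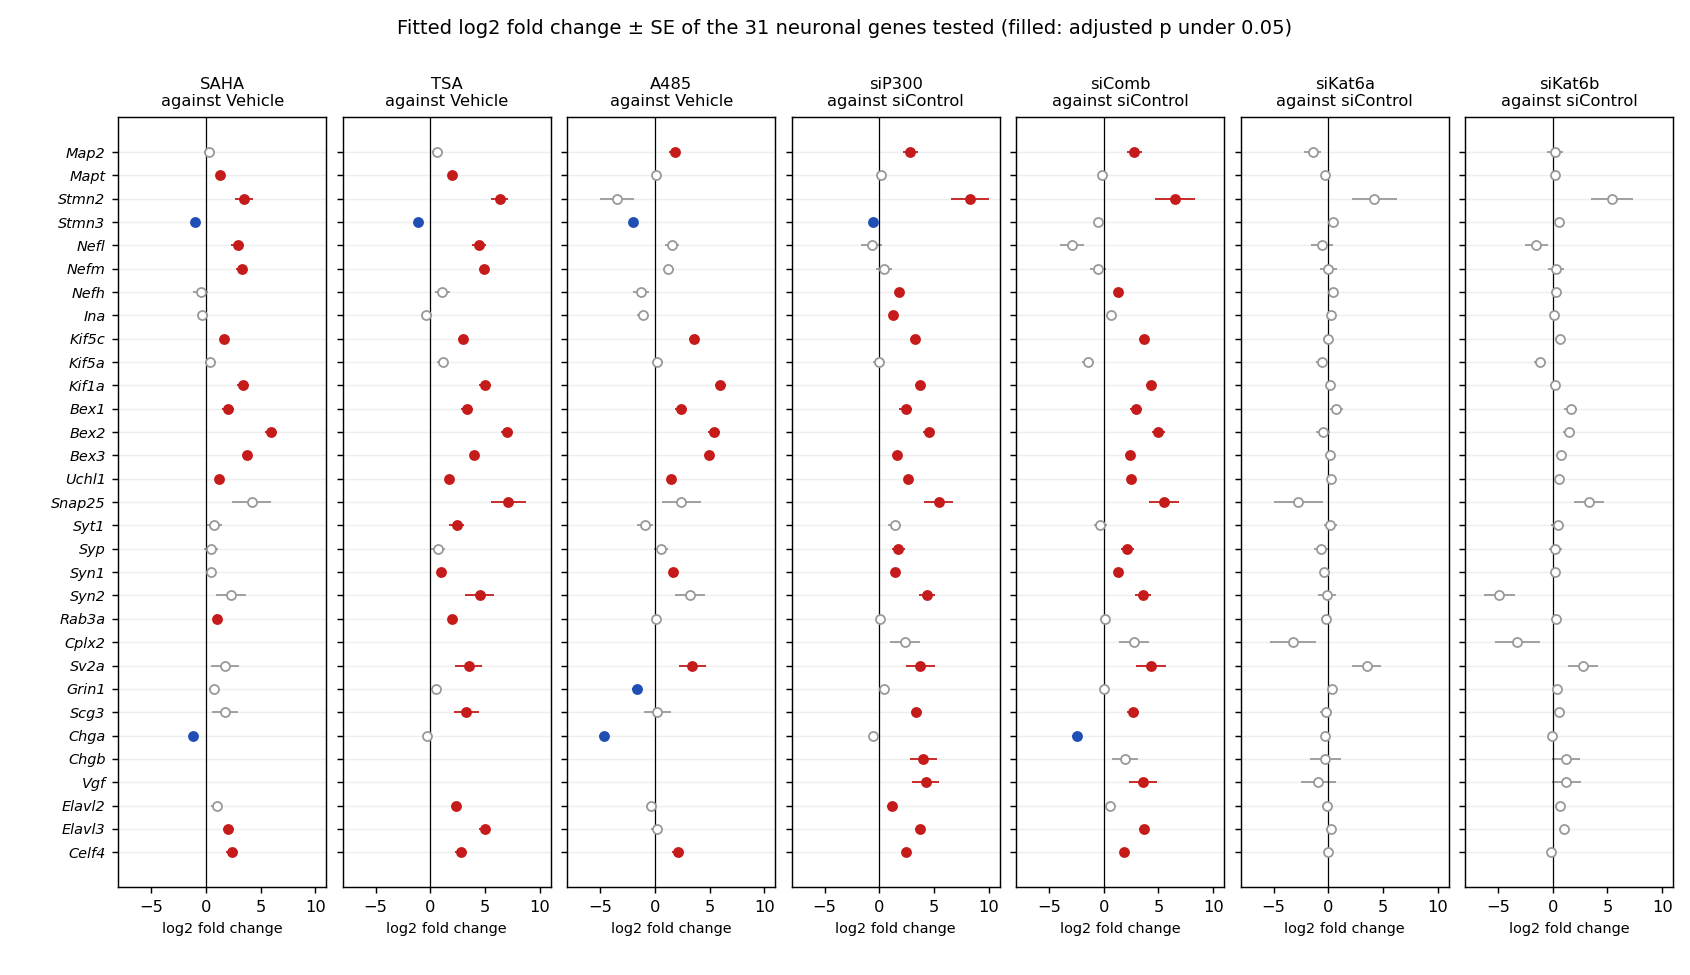
Fitted log2 fold change with its standard error for the 31 neuronal genes tested, in each of the 7 comparisons with a control (3 libraries a group). Red and blue points have an adjusted p under 0.05 (edgeR) and lie above and below 0. Open grey points do not. The siKat6a and siKat6b panels hold no filled point.

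Among the 38 genes, 7 rose in all 5 of the comparisons with SAHA, TSA, A485, siP300 and siComb: Bex1, Bex2, Bex3, Uchl1, Kif5c, Kif1a and Celf4. The share of all genes that rose in all 5 was not computed. The SAHA, TSA and A485 comparisons share the Vehicle libraries, and siP300 and siComb share those of siControl, so they are not independent. The Bex genes encode small adaptor proteins first described as expressed in the brain, and Bex3 codes for a binding partner of the neurotrophin receptor p75. All 3 lie on the X chromosome, with starts within 202017 bases of each other. Bex2 stood at 0, 0.601 and 0.64 CPM in the Vehicle libraries, 27.4, 19.4 and 32.1 with SAHA, 49.8, 53.1 and 55.2 with TSA and 17.1, 27.3 and 10.1 with A485. After siRNA, Bex2 stood at 4.08, 2.38 and 0.956 CPM with siControl, 40.5, 77.7 and 50.9 with siP300, 37.4, 103 and 94.8 with siComb, 3.1, 0.214 and 1.85 with siKat6a and 8.73, 4.48 and 7.58 with siKat6b. Each treated library of the 5 groups lay above every library of its control. The log2 fold changes of Bex2 were 5.99 with SAHA, 7.02 with TSA, 5.45 with A485, 4.53 with siP300 and 4.99 with siComb, with adjusted p between 2.04e-07 and 3.44e-05. 

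Bex3 stood at 6.12, 3.0 and 1.28 CPM in the Vehicle libraries, 40.7, 32.5 and 64 with SAHA, 42.1, 74.8 and 45.6 with TSA and 118, 95.8 and 108 with A485. After siRNA, Bex3 stood at 17.6, 18.3 and 10.1 CPM with siControl, 27, 71.1 and 42.9 with siP300, 42.3, 100.3 and 98.1 with siComb, 20.0, 12.4 and 20.0 with siKat6a and 46.6, 11.7 and 20.1 with siKat6b. The groups did not overlap in any of the 5 comparisons, and the A485 libraries were the highest of the inhibitor family. Its log2 fold changes were 3.75 with SAHA, 4.02 with TSA, 4.97 with A485, 1.63 with siP300 and 2.39 with siComb, with adjusted p between 8.75e-07 and 0.0113. With siP300 the call was lost without the third siControl library (0.0583) or the second siP300 library (0.0501), with the adjusted p in parentheses. Bex1 stood at 0.816, 2.8 and 2.77 CPM in the Vehicle libraries, 13.8, 3.91 and 7.62 with SAHA, 15.6, 35.3 and 12.6 with TSA and 8.93, 10.2 and 13.8 with A485. After siRNA, Bex1 stood at 4.9, 5.86 and 3.63 CPM with siControl, 13.7, 48.3 and 13.9 with siP300, 11.7, 51.4 and 47.6 with siComb, 8.06, 3.21 and 12.6 with siKat6a and 17.7, 14.2 and 13.1 with siKat6b. Its siP300 and siComb libraries were uneven, with 1 siP300 library and 2 siComb libraries far above the rest of their groups. Bex1 rose by 2.01 with SAHA, 3.37 with TSA, 2.39 with A485, 2.42 with siP300 and 2.94 with siComb on the log2 scale, with adjusted p between 0.000151 and 0.0115. With SAHA the call was lost without the first SAHA library (0.0701).

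Pools can differ in the sex of their embryos, and Xist, which is transcribed from the inactive X, differed between groups. It stood at 158 to 312 CPM with Vehicle, 38.6 to 163 with SAHA, 13.5 to 45.8 with TSA and 39.2 to 143 with A485, and at 196 to 243 with siControl, 128 to 326 with siP300 and 23.4 to 245 with siComb. The summed level of the Y-linked genes Ddx3y, Eif2s3y, Kdm5d and Uty was 87.7 to 175 CPM with Vehicle, 122 to 233 with SAHA, 33.2 to 151 with TSA, 213 to 276 with A485, 105 to 185 with siControl, 95.1 to 107 with siP300 and 111 to 231 with siComb. Bex1, Bex2, Bex3, Syn1, Syp and Dcx are X-linked, and the part of these differences in their levels was not tested.

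The promoters of Bex2 and Bex3 are shown because these neighbors moved in the same direction in all 5 comparisons. The 250 bases before each start (RefSeq, GRCm38.p6) are chrX:136068237-136068486, minus strand, for Bex2 and chrX:136270003-136270252, plus strand, for Bex3. Each is written 5′ to 3′ on the strand of its gene. Capitals mark the run that both share.
Bex2: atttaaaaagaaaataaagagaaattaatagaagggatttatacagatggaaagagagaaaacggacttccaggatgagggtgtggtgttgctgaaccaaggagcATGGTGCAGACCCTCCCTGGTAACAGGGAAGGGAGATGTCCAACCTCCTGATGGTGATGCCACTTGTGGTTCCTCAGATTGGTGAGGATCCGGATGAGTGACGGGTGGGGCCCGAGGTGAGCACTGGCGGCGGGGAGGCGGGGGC
Bex3: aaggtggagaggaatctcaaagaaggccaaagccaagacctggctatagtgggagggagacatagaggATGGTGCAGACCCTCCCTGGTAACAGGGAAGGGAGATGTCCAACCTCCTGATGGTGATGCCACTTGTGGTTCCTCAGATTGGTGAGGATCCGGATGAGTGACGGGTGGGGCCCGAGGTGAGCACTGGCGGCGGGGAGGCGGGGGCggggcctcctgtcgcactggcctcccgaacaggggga
The shared run is 145 bases long, ends at the last base before the start of Bex2, and lies 182 to 38 bases before the start of Bex3. Among 32851 promoter windows in the table, it was found in those of these 2 genes alone. The longest run that Bex1 shares with either is 9 bases. Over the whole windows, which reach 50 bases past the start, the run of Bex2 and Bex3 extends to 162 bases. How reads that match 2 genes were counted is not given in the sources used here.

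Uchl1, a ubiquitin hydrolase abundant in neurons and also in oocytes, stood at 43.6, 66.1 and 87.5 CPM in the Vehicle libraries, 159.9, 162 and 134 with SAHA, 216, 191 and 215 with TSA and 209, 115 and 196 with A485. After siRNA, Uchl1 stood at 40.4, 41.5 and 20.5 CPM with siControl, 227, 188 and 200.2 with siP300, 208, 194 and 157 with siComb, 40.1, 47.1 and 30.9 with siKat6a and 38.3, 31.2 and 79.6 with siKat6b. Its siP300 and siComb libraries were all at 157 CPM or more and its siControl libraries at 41.5 CPM or less. The log2 fold changes were 1.25 with SAHA, 1.72 with TSA, 1.44 with A485, 2.61 with siP300 and 2.45 with siComb, with adjusted p between 2.61e-05 and 0.00171. An antisense gene, Uchl1os, overlaps 18.1% of its exon length.

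**Figure D3:**
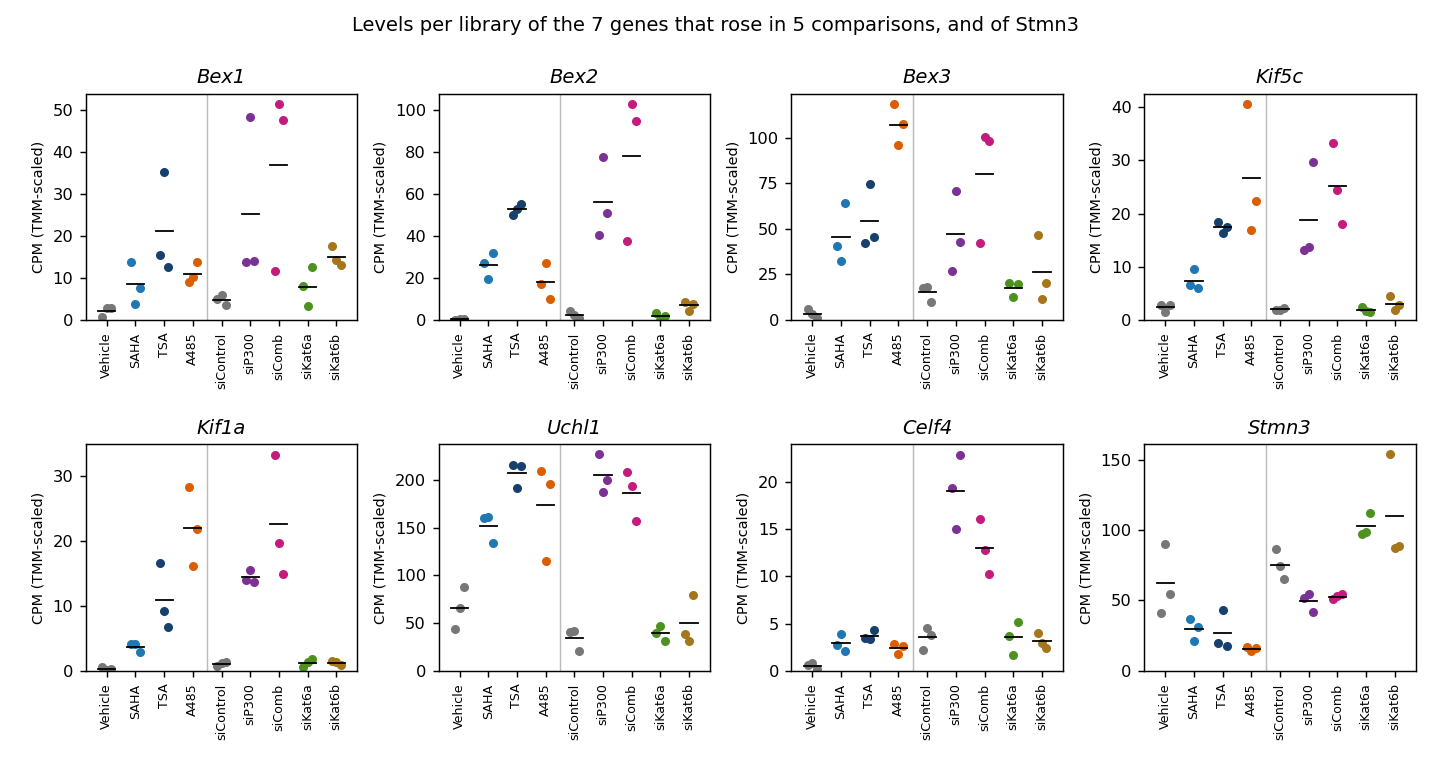
Level per library (points) and group mean (bar) of the 7 neuronal genes that rose in 5 comparisons, and of Stmn3, in TMM-scaled CPM from 0. The inhibitor family lies left of the grey line and the siRNA family right of it. The Bex2 points of SAHA, TSA, A485, siP300 and siComb all lie above their controls, and the Stmn3 points of A485 lie below the Vehicle points.

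Of the kinesin genes, whose products carry cargo along axonal microtubules, Kif5c and Kif1a rose in 5 comparisons and Kif5a in none. KIF1A moves synaptic vesicle precursors. Kif1a stood at 0.612, 0.20 and 0.213 CPM in the Vehicle libraries, 4.15, 4.11 and 2.86 with SAHA, 16.7, 9.18 and 6.83 with TSA and 28.3, 16.1 and 21.9 with A485. After siRNA, Kif1a stood at 0.816, 1.19 and 1.34 CPM with siControl, 14, 15.6 and 13.7 with siP300, 33.3, 19.7 and 15 with siComb, 0.62, 1.29 and 1.85 with siKat6a and 1.49, 1.36 and 0.948 with siKat6b. No treated library of the 5 groups overlapped its control. Kif1a changed by 3.42 with SAHA, 5.0 with TSA, 5.99 with A485, 3.69 with siP300 and 4.32 with siComb (log2), with adjusted p between 7.14e-07 and 0.000238. Kif5c, a conventional kinesin heavy chain, stood at 2.86, 1.4 and 2.77 CPM in the Vehicle libraries, 6.6, 9.58 and 5.95 with SAHA, 18.4, 16.4 and 17.5 with TSA and 40.6, 16.9 and 22.4 with A485. After siRNA, Kif5c stood at 1.84, 1.79 and 2.29 CPM with siControl, 13.2, 13.7 and 29.7 with siP300, 33.3, 24.5 and 18.1 with siComb, 2.48, 1.71 and 1.48 with siKat6a and 4.47, 1.95 and 2.84 with siKat6b. Of its family, 2 A485 libraries were the highest, and none of the 5 treated groups overlapped its control. Its log2 fold changes were 1.69 with SAHA, 2.96 with TSA, 3.54 with A485, 3.25 with siP300 and 3.67 with siComb, with adjusted p between 5.98e-06 and 0.00378. Kif5a ranged from 1.06 to 7.94 CPM over all libraries. Its log2 fold changes were 1.12 with TSA (adjusted p = 0.0686) and −1.43 with siComb (adjusted p = 0.0521), and both passed the threshold in a fit of the 2 groups alone (0.0249 and 0.017). With that fit included, the TSA value passed in 3 of 13 alternatives and the siComb value in 4 of 14.

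Celf4, which encodes a neuronal RNA-binding protein, was low in every inhibitor library. Celf4 stood at 0.612, 0.801 and 0.213 CPM in the Vehicle libraries, 2.69, 3.91 and 2.14 with SAHA, 3.46, 3.34 and 4.37 with TSA and 2.86, 1.77 and 2.62 with A485. After siRNA, Celf4 stood at 2.25, 4.57 and 3.82 CPM with siControl, 19.4, 15 and 22.9 with siP300, 16.1, 12.8 and 10.2 with siComb, 3.72, 1.71 and 5.18 with siKat6a and 4.05, 2.92 and 2.46 with siKat6b. The siP300 and siComb libraries were at 10.2 CPM or more and all siControl libraries at 4.57 or less. Its log2 fold changes were 2.43 with SAHA, 2.81 with TSA, 2.16 with A485, 2.44 with siP300 and 1.87 with siComb, with adjusted p between 0.000194 and 0.00488. The ELAV-like RNA-binding proteins stabilize neuronal transcripts. Elavl3 stood at 0.816, 0.601 and 1.07 CPM in the Vehicle libraries, 3.18, 3.33 and 3.57 with SAHA, 26.2, 19.7 and 30.5 with TSA and 1.52, 0.197 and 0.935 with A485. After siRNA, Elavl3 stood at 1.84, 1.59 and 1.15 CPM with siControl, 15.2, 15.3 and 29.6 with siP300, 28.3, 18.5 and 12 with siComb, 1.65, 1.93 and 1.85 with siKat6a and 2.56, 1.95 and 4.55 with siKat6b. It was high with TSA, siP300 and siComb, and overlapped Vehicle with A485. Elavl3 rose by 2.04 with SAHA, 4.99 with TSA, 3.72 with siP300 and 3.68 with siComb on the log2 scale, with adjusted p between 1.61e-06 and 0.00539, and its A485 value was 0.16 ± 0.53 (SE; adjusted p = 0.84). Another gene of the same strand shares 42.3% of the span of Elavl3. Elavl2 stood at 3.88, 2.2 and 3.2 CPM in the Vehicle libraries, 7.82, 4.89 and 5.24 with SAHA, 15.6, 17.2 and 11.7 with TSA and 0.843, 4.33 and 2.06 with A485. After siRNA, Elavl2 stood at 4.49, 4.97 and 5.93 CPM with siControl, 14.5, 3.42 and 15.5 with siP300, 9.51, 6.3 and 6.75 with siComb, 4.55, 4.93 and 4.26 with siKat6a and 5.54, 9.74 and 8.53 with siKat6b. The TSA libraries lay above Vehicle, whereas 1 siP300 library lay below every siControl library. Elavl2 rose by 2.32 with TSA (adjusted p = 0.000776) and by 1.13 with siP300 (adjusted p = 0.0482), and the latter call was lost without the first (0.145), the second (0.12) or the third (0.0824) siControl library or the first (0.162) or the third (0.19) siP300 library and in a fit of the 2 groups alone (0.0865). Elavl4 did not exceed 1.39 CPM in any library and was not tested.

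Calls among the cytoskeletal genes fell on different agents, and the difference between agents was tested for siP300 and A485 alone. Nefl and Nefm, which encode the light and medium neurofilament chains, rose with SAHA and TSA. Nefm stood at 0.408, 0.801 and 0.427 CPM in the Vehicle libraries, 4.64, 4.89 and 6.19 with SAHA, 16.1, 10.8 and 21.3 with TSA and 1.85, 0.59 and 1.31 with A485. After siRNA, Nefm stood at 2.65, 1.39 and 1.34 CPM with siControl, 1.18, 1.71 and 4.13 with siP300, 1.36, 2.04 and 0.365 with siComb, 0.827, 0.857 and 3.7 with siKat6a and 1.06, 1.75 and 3.6 with siKat6b. The SAHA and TSA libraries lay above all Vehicle libraries, while the siP300 and siComb values overlapped those of siControl. Nefm rose by 3.26 with SAHA and 4.91 with TSA on the log2 scale (adjusted p = 0.000189 and 1.94e-06), and its siP300 value was 0.40 ± 0.73 (SE; adjusted p = 0.7). Nefl stood at 0.612, 0.20 and 0.213 CPM in the Vehicle libraries, 3.42, 1.56 and 2.86 with SAHA, 6.91, 5.28 and 10.4 with TSA and 1.35, 0.59 and 1.12 with A485. After siRNA, Nefl stood at 2.25, 1.19 and 2.1 CPM with siControl, 0.507, 0.76 and 2.07 with siP300, 0.34, 0.371 and 0 with siComb, 0.827, 1.29 and 1.48 with siKat6a and 0.213, 0 and 1.71 with siKat6b. Its siComb libraries were all below those of siControl. Nefl rose by 2.91 with SAHA and 4.47 with TSA (adjusted p = 0.00231 and 2.95e-05), and its values were 1.58 with A485 (adjusted p = 0.0532) and −2.90 with siComb (adjusted p = 0.0532). The A485 value passed the threshold in 6 of 12 alternatives and the siComb value in 4 of 13. Exons of Nefl and Nefm overlap on opposite strands over 32.8% and 19.2% of their lengths.

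Nefh, the heavy chain, and Ina, which encodes alpha-internexin, were called in the siRNA family. Nefh rose with siP300 and siComb, by 1.84 and 1.28 (log2; adjusted p = 0.00194 and 0.0167), from 5.71, 2.98 and 5.35 CPM with siControl to 16.2, 17.5 and 16.1 with siP300 and 7.13, 14.8 and 12.1 with siComb. Ina rose with siP300, by 1.29 (adjusted p = 0.0122), from 10.1, 5.36 and 7.07 to 18.4, 15.1 and 20.9 CPM. In the inhibitor family neither passed the threshold in the main fit. In a fit of the 2 groups alone, Nefh passed with TSA (log2 1.20, edgeR adjusted p = 0.0284). Ina passed there with A485 (log2 −1.12, edgeR adjusted p = 0.0462), and each passed in 1 of 13 alternatives. The Nefh call with siComb was lost without the second siControl library (0.0841) or the second siComb library (0.0736) and without the 4 libraries of high MERVL (0.0689), and the Ina call without the second siControl library (0.0637). Mapt, which encodes tau, rose with SAHA and TSA, by 1.30 and 1.96 (adjusted p = 0.000152 and 1.47e-06). It stood at 105, 89.9 and 95 CPM in the Vehicle libraries, 237, 205 and 251 with SAHA, 349, 377 and 354 with TSA and 138, 84.4 and 83.9 with A485. With siP300 its value was 0.13 ± 0.18 (adjusted p = 0.59), at 190.3, 228 and 182 CPM against 163, 175 and 216. Map2, a dendritic microtubule-associated protein, rose with A485, siP300 and siComb. Map2 stood at 1.43, 1.2 and 1.28 CPM in the Vehicle libraries, 0.733, 2.35 and 1.67 with SAHA, 2.59, 1.11 and 2.19 with TSA and 4.04, 4.72 and 5.05 with A485. After siRNA, Map2 stood at 0.612, 1.79 and 1.53 CPM with siControl, 7.09, 8.74 and 12.5 with siP300, 12.2, 8.72 and 6.75 with siComb, 0, 1.29 and 0.185 with siKat6a and 1.06, 0.974 and 2.46 with siKat6b. The A485, siP300 and siComb libraries each lay above their controls. The rises of Map2 were 1.84 with A485, 2.85 with siP300 and 2.80 with siComb (log2), with adjusted p between 0.00465 and 0.0084, and its values were 0.33 ± 0.52 with SAHA and 0.65 ± 0.52 with TSA (SE; adjusted p = 0.658 and 0.299).

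The stathmins, which bind tubulin and destabilize microtubules, moved in opposite directions. Stmn2 stood at 0, 0.20 and 0.213 CPM in the Vehicle libraries, 0.733, 2.74 and 1.43 with SAHA, 16.7, 8.62 and 9.56 with TSA and 0, 0 and 0 with A485. After siRNA, Stmn2 stood at 0, 0 and 0 CPM with siControl, 3.72, 2.47 and 4.52 with siP300, 0.509, 1.85 and 0.729 with siComb, 0.207, 0.214 and 0.185 with siKat6a and 1.49, 0 and 0 with siKat6b. It had 0 counts in every A485 and every siControl library, while every SAHA, TSA, siP300, siComb and siKat6a library held some. The siKat6a libraries were at 0.214 CPM or less, and that comparison was not called. Stmn2 rose by 3.5 with SAHA and 6.33 with TSA (log2; adjusted p = 0.00545 and 2.54e-05). Against a floor of 3 counts over the siControl group, it was at least 36.1-fold higher with siP300 and at least 10.4-fold higher with siComb (adjusted p = 0.0024 and 0.0121). The floor takes counts as independent, and these bounds are too high if both reads of a pair were counted. Stmn3 was already among the highest of the 38 genes in controls, with a mean level per kilobase of exon of 54.7 CPM in Vehicle, beside 40.3 for Uchl1 and 12.8 for Mapt. The other members were at 3.95 CPM per kilobase or less there. Stmn3 stood at 41.2, 90.3 and 54.8 CPM in the Vehicle libraries, 36.9, 21.1 and 31.2 with SAHA, 19.6, 43.1 and 17.5 with TSA and 17, 14 and 16.1 with A485. After siRNA, Stmn3 stood at 86.7, 74.1 and 65.4 CPM with siControl, 51.5, 54.5 and 41.7 with siP300, 50.9, 52.8 and 54.3 with siComb, 97.3, 98.3 and 112 with siKat6a and 154, 87.1 and 88.9 with siKat6b. The A485 libraries lay below all others, and 1 TSA library overlapped Vehicle. Stmn3 fell by 1.03 with SAHA, 1.15 with TSA, 1.95 with A485 and, in the siRNA family, 0.59 with siP300 on the log2 scale, with adjusted p between 0.000529 and 0.0347. The A485 call held in every alternative. The SAHA call was lost without the second Vehicle library (0.19) or the second (0.128) or the third (0.0815) SAHA library, the TSA call without the second Vehicle library (0.0747) or the first (0.0529) or the third (0.0547) TSA library, and the siP300 call without the first (0.13) or the second (0.069) siControl library or the third siP300 library (0.131) and under library size alone (0.263). Tubb3, which encodes the neuronal beta-tubulin, was listed at 0 in all 27 libraries. Its span lies wholly inside another gene of the same strand, and of 432 genes in that position 93.5% were at 0, against 9.21% of 20302 genes inside no other gene, so the 0 carries no information on its level. Stmn4, Gap43 and Dcx did not exceed 0.646, 2.36 and 0.288 CPM.

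Among the synaptic vesicle genes, Syn1 and Syn2 encode synapsins, which tether vesicles to actin. Syn1 stood at 11, 11.3 and 5.76 CPM in the Vehicle libraries, 12, 16.2 and 10.8 with SAHA, 18.7, 18.4 and 17.2 with TSA and 26.6, 31 and 27.6 with A485. After siRNA, Syn1 stood at 8.47, 13.1 and 11.6 CPM with siControl, 27.4, 29.1 and 30.4 with siP300, 31.9, 25.5 and 24.9 with siComb, 8.16, 9.42 and 8.05 with siKat6a and 15.7, 9.35 and 13.3 with siKat6b. The TSA, A485, siP300 and siComb libraries lay above their controls without overlap. Syn1 rose by 1.01 with TSA, 1.63 with A485, 1.40 with siP300 and 1.31 with siComb (log2), with adjusted p between 0.000218 and 0.00528, and its SAHA value was 0.51 ± 0.27 (SE; adjusted p = 0.155). Syn2 stood at 0.204, 0 and 0 CPM in the Vehicle libraries, 0.489, 0.196 and 0.476 with SAHA, 2.3, 2.23 and 0.82 with TSA and 1.52, 0 and 0.654 with A485. After siRNA, Syn2 stood at 0.612, 0.397 and 0 CPM with siControl, 8.53, 4.56 and 7.81 with siP300, 5.43, 4.08 and 2.73 with siComb, 0.31, 0.428 and 0.185 with siKat6a and 0, 0 and 0 with siKat6b. It was highest with siP300 and siComb and had 0 counts in every siKat6b library. Syn2 rose by 4.36 with siP300 and 3.57 with siComb (log2), with adjusted p of 0.000486 and 0.00158. The Vehicle libraries together held 2 counts of Syn2, and its level over the TSA libraries was 25.8-fold (6.67 to 221) that of Vehicle, with the exact 95% interval of counting error in parentheses (adjusted p = 0.00921). With A485 the ratio was 11.1-fold (2.78 to 97) and not called (adjusted p = 0.0617), and it passed the threshold in 4 of 11 alternatives. Both intervals take counts as independent and are too narrow if both reads of a pair were counted. Another gene of the same strand shares 21.7% of the span of Syn2.

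The left part of the RE1 element, CAGCACC on either strand, was sought in the RefSeq promoter windows of 27 of the 38 genes (300 bases, 40 windows). Mapt, Kif5a, Stmn2, Stmn4, Gap43, Snap25, Nefl, Nefm, Nefh, Vgf and Celf4 had no entry. It was found in 7 of the 40 windows, of 6 genes, and in 7.14% of all 32851 windows. The right part, GGACAGC, was found in 4 of 40 windows and in 6.56% of all. Syn1 and Kif1a are shown because Syn1 is a textbook target of REST and both rose in 4 or more comparisons. The 250 bases before a RefSeq start are chrX:20920919-20921168, minus strand, and chr1:93101875-93102124, minus strand, each 5′ to 3′ on the gene's strand, with matches to the left part in capitals. Not every window of Kif1a is shown. Both stretches reach into the gene as GENCODE places it, so these starts lie inside the longest annotated span.
Syn1: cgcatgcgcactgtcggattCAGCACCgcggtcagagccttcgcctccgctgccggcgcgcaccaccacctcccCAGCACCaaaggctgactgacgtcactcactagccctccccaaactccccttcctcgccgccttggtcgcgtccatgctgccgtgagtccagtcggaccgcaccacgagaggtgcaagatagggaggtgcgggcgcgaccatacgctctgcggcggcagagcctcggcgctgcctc
Kif1a: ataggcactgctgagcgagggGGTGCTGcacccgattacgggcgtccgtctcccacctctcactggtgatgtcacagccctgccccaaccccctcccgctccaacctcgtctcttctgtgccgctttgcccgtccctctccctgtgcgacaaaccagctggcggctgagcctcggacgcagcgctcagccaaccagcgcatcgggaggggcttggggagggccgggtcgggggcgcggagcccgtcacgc
In Syn1 the 2 matches begin 230 and 176 bases before the start. The match in Kif1a begins 229 bases before the start and reads as GGTGCTG, on the opposite strand. A match of these letters is a description of the window and not of binding.

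Snap25, a subunit of the SNARE complex that fuses vesicles with the membrane, was near 0 in both controls. Snap25 stood at 0, 0 and 0 CPM in the Vehicle libraries, 0.244, 0 and 0.476 with SAHA, 1.73, 2.23 and 1.64 with TSA and 0.169, 0 and 0 with A485. After siRNA, Snap25 stood at 0, 0 and 0.191 CPM with siControl, 1.86, 2.28 and 5.81 with siP300, 2.55, 5.01 and 2.92 with siComb, 0, 0 and 0 with siKat6a and 0.213, 0 and 2.08 with siKat6b. Every TSA, siP300 and siComb library held it above its control. It was at least 18.1-fold higher with TSA than with Vehicle when Vehicle is set to a group floor of 3 counts (adjusted p = 0.002), with 40 counts in the TSA libraries. The siControl libraries held 2 counts, against which the ratio was 54.5-fold (14.8 to 454) with siP300 and 52.5-fold (14.2 to 438) with siComb (adjusted p = 0.00587 and 0.00497), with the exact 95% counting interval in parentheses. The floor and the intervals here, also for Sv2a, take counts as independent. If both reads of a pair were counted, the intervals are too narrow and the floor too low. Sv2a, a vesicle glycoprotein, stood at 0, 0 and 0.64 CPM in the Vehicle libraries, 1.22, 0 and 0.952 with SAHA, 4.03, 1.95 and 1.37 with TSA and 2.7, 3.54 and 0.748 with A485. After siRNA, Sv2a stood at 0, 0 and 0.191 CPM with siControl, 0.844, 0.38 and 1.81 with siP300, 2.21, 1.67 and 0.729 with siComb, 0.413, 0.857 and 1.3 with siKat6a and 0, 1.36 and 0.19 with siKat6b. The A485, TSA, siP300 and siComb groups lay above their controls at low levels. So did siKat6a, which was not called, at 13.2-fold (3.31 to 115) the siControl level. Sv2a rose by 3.53 with TSA and 3.43 with A485 (log2; adjusted p = 0.0242 and 0.0334). Against 2 counts over siControl, its ratio was 16.8-fold (4.38 to 143) with siP300 and 23.5-fold (6.19 to 199) with siComb (adjusted p = 0.039 and 0.0188). The TSA call was lost without the first (0.074) or the second (0.0753) Vehicle library or the first TSA library (0.0858), and the A485 call without the first (0.0969) or the second (0.1) Vehicle library or the first (0.0607) or the second (0.0919) A485 library. The siP300 call was lost without the first (0.127) or the second (0.123) siControl library or the first (0.0522) or the third (0.135) siP300 library, and the siComb call without the first (0.0744) or the second (0.0722) siControl library or the first siComb library (0.0563).

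Syp, which encodes synaptophysin, stood at 0.408, 1.8 and 2.35 CPM in the Vehicle libraries, 0.977, 3.33 and 1.67 with SAHA, 3.17, 1.67 and 2.46 with TSA and 2.7, 2.16 and 1.68 with A485. After siRNA, Syp stood at 0.816, 1.79 and 0.765 CPM with siControl, 4.73, 1.52 and 4.78 with siP300, 6.45, 2.41 and 6.38 with siComb, 0.413, 0.964 and 0.74 with siKat6a and 1.06, 1.95 and 0.948 with siKat6b. The siComb libraries lay above siControl, and 1 siP300 library overlapped it. Syp rose by 1.72 with siP300 and 2.16 with siComb (log2; adjusted p = 0.0322 and 0.00941), and the siP300 call was lost without the first (0.116) or the third (0.115) siControl library or the first (0.0923) or the third (0.0981) siP300 library. Syt1, which encodes a calcium sensor of vesicle release, stood at 2.04, 1.2 and 0.213 CPM in the Vehicle libraries, 2.2, 1.96 and 1.67 with SAHA, 5.76, 8.34 and 3.55 with TSA and 0.843, 0.197 and 0.748 with A485. After siRNA, Syt1 stood at 1.63, 3.58 and 1.91 CPM with siControl, 3.72, 5.13 and 9.94 with siP300, 1.02, 1.48 and 3.28 with siComb, 4.96, 1.29 and 1.85 with siKat6a and 4.68, 3.12 and 2.08 with siKat6b. Of the 7 comparisons, that with TSA was called, with a rise of 2.40 ± 0.67 (SE; adjusted p = 0.00708). Its siP300 value was 1.40 (adjusted p = 0.0711) and passed the threshold in 3 of 14 alternatives. Rab3a, a small GTPase of vesicles, rose with SAHA and TSA, by 1.02 and 1.96 (adjusted p = 0.0145 and 6.48e-05), from 7.24, 8.31 and 6.4 CPM with Vehicle to 16.7, 13.2 and 13.6 with SAHA, and 24.3, 37.1 and 20.5 with TSA. The SAHA call was lost without the third Vehicle library (0.0511) or the first SAHA library (0.0596). Rab3a with siP300 was at 0.06 ± 0.39 (SE; adjusted p = 0.915). Cplx2, a complexin, did not exceed 1.19 CPM and had no call.

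The granins are secreted proteins of dense-core vesicles. Chga, chromogranin A, fell in 3 comparisons. Chga stood at 13.3, 12.8 and 6.62 CPM in the Vehicle libraries, 4.4, 5.28 and 4.52 with SAHA, 10.1, 7.51 and 7.38 with TSA and 0.674, 0.197 and 0.374 with A485. After siRNA, Chga stood at 11.3, 15.1 and 10.3 CPM with siControl, 6.08, 10.3 and 7.88 with siP300, 2.21, 2.78 and 1.64 with siComb, 6.61, 6.43 and 16.3 with siKat6a and 16.2, 7.99 and 11 with siKat6b. The A485 and siComb libraries lay far below their controls. Chga fell by 4.61 with A485, by 2.46 with siComb and by 1.16 with SAHA (log2; adjusted p = 3.03e-06, 0.000251 and 0.0274). The SAHA call was lost without the first (0.107) or the second (0.101) Vehicle library or the first (0.0844), the second (0.0548) or the third (0.0853) SAHA library and with no filter (0.0574). The siP300 value was −0.59 ± 0.38 (SE; adjusted p = 0.244). Scg3, secretogranin III, stood at 0, 0.401 and 0.213 CPM in the Vehicle libraries, 0.733, 0.391 and 0.952 with SAHA, 2.02, 1.39 and 2.73 with TSA and 0.674, 0 and 0 with A485. After siRNA, Scg3 stood at 0.408, 0.596 and 0.86 CPM with siControl, 8.11, 6.65 and 5.04 with siP300, 3.06, 5.75 and 3.28 with siComb, 0.62, 0.428 and 0.555 with siKat6a and 0.852, 1.36 and 0.569 with siKat6b. The siP300 and siComb libraries were at 3.06 CPM or more and siControl at 0.860 or less. Scg3 rose by 3.30 with TSA, 3.40 with siP300 and 2.67 with siComb (log2), with adjusted p between 0.000134 and 0.0247, and the TSA call was lost without the first (0.0913) or the third (0.0656) Vehicle library or the first (0.0516) or the third (0.0739) TSA library. Vgf and Chgb were tested in the siRNA family. Vgf stood at 0.408, 0 and 0 CPM with siControl, 1.01, 1.9 and 5.16 with siP300, 2.04, 1.67 and 1.46 with siComb, 0, 0 and 0.185 with siKat6a and 0.213, 0 and 0.758 with siKat6b, and no inhibitor-family library exceeded 0.288. It rose by 4.23 with siP300 and 3.58 with siComb (adjusted p = 0.0153 and 0.0325). The siP300 call was lost without the second (0.0618) or the third (0.0619) siControl library or the third siP300 library (0.0853), and the siComb call without the second (0.109) or the third (0.109) siControl library or the first (0.0704) or the second (0.0525) siComb library. Chgb stood at 0.408, 0 and 0.0956 CPM with siControl, 0.844, 4.75 and 2.97 with siP300, 0.17, 1.3 and 0.547 with siComb, 0.413, 0 and 0 with siKat6a and 0.639, 0.195 and 0.379 with siKat6b, and at 0 to 1.19 CPM in the inhibitor family. It rose by 4.03 with siP300 (adjusted p = 0.0184), a call that was lost without the second (0.0693) or the third (0.071) siControl library or the second siP300 library (0.0657) and without the 4 libraries of high MERVL (0.0749). Scg2 did not exceed 0.34 CPM. Of the glutamate receptor subunits, Gria2 did not exceed 1.06 CPM. Grin1 fell with A485, from 6.53, 4.41 and 4.91 to 3.12, 0.787 and 0.935 CPM, by 1.65 (log2; adjusted p = 0.0121), with no other call.

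Both A485 and siP300 are directed at p300, the first by inhibition of the enzyme shortly before harvest and the second by siRNA from the zygote on. The difference between their effects was tested as an interaction over all 27 libraries. Of 31 neuronal genes tested, 8 were higher and 2 lower in the siP300 effect than in the A485 effect, where 16.1% and 10.4% of 20744 genes were. Under library size alone the share of higher calls over all genes went from 60.9 to 74.7%. The siP300 effect exceeded the A485 effect for Elavl3 by 3.59 ± 0.69 (SE; adjusted p = 0.000441), for Chga by 4.05 ± 0.61 (SE; adjusted p = 2.68e-05), for Nefh by 3.13, Ina by 2.41, Grin1 by 2.10, Stmn3 by 1.37 and Uchl1 by 1.19 (adjusted p between 0.00607 and 0.0402), and for Stmn2, which A485 and siControl libraries did not hold (adjusted p = 0.00285). It was below the A485 effect for Bex3, by −3.33 (adjusted p = 0.000835), and for Kif1a, by −2.29 (adjusted p = 0.0117). The Uchl1 difference was lost without the second (0.065) or the third (0.137) Vehicle library or the second A485 library (0.112) or the third siControl library (0.123) or the first (0.0841) or the third (0.0595) siP300 library, and that of Stmn3 without the second Vehicle library (0.0816). For Bex2, Bex1, Kif5c, Syn1 and Celf4 the difference did not pass the test, at −0.91, 0.03, −0.25, −0.21 and 0.30 (standard errors 0.92, 0.97, 0.56, 0.34 and 0.67). The agents also differed in time and route, and these cannot be told apart.

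**Figure D4:**
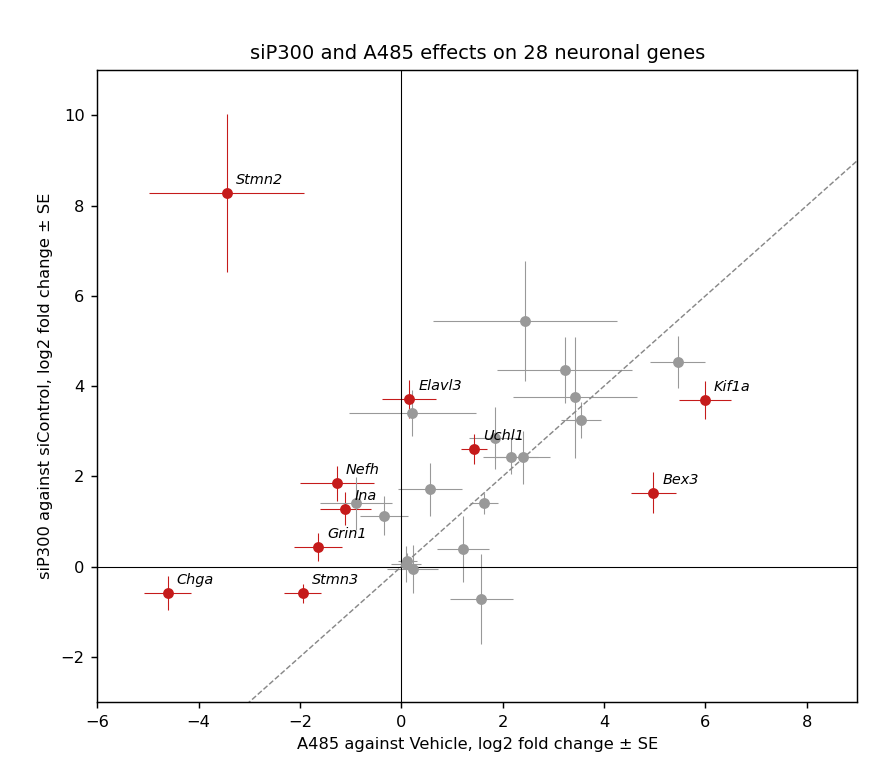
Log2 fold change of siP300 against siControl (vertical) and of A485 against Vehicle (horizontal) for the 28 neuronal genes tested in both families, with standard errors. Red genes differ between the effects at an adjusted p under 0.05, and the dashed line marks equal effects. Chga and Stmn2 lie far above the line, and Bex3 and Kif1a below it.

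With siKat6a, 0 of 31 neuronal genes were called, and 0% of all genes rose and 0% fell. Before adjustment, 2 of the 31 and 410 of 19180 genes had p under 0.05, and DESeq2 called 0 of the neuronal genes and 2 genes in all. With siKat6b, 0 of 31 were called as well, where 0.0104% of all genes rose and 0.0104% fell, with 7 of the 31 and 2001 genes under 0.05 before adjustment. DESeq2 called 0 of the neuronal genes and 237 genes with siKat6b. The median log2 fold change of the neuronal genes was −0.11 with siKat6a and 0.38 with siKat6b. Bex1 and Bex2 had siKat6b values of 1.64 ± 0.58 and 1.49 ± 0.57 (SE; edgeR adjusted p = 0.308 and 0.343), and every siKat6b library lay above every siControl library for both. Of the 4 genes called with siKat6b, 50% were higher, and of the 3 called under library size alone 66.7%.

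Genes of related function were read from further lists. Over all genes tested, 20.2% rose and 14.0% fell with SAHA, 31.6% and 26.6% with TSA, and 21.4% and 24.2% with A485. With siP300 these shares were 19.7% and 15.7%, and with siComb 19.6% and 17.1%. The counts of every further list stand against these shares. No further list was read again for genes above the filter level in every control library. Of 65 other synaptic and axonal genes, 50 were tested in the inhibitor family, of which 23 rose and 2 fell with SAHA, 32 and 1 with TSA, and 12 and 7 with A485. Of 54 tested in the siRNA family, 23 rose and 1 fell with siP300, and 18 and 2 with siComb. The share of this list that rose was 46% with SAHA, 64% with TSA, 42.6% with siP300 and 33.3% with siComb. With A485 it was 24%, near the share over all genes. Grin2a, an NMDA receptor subunit, stood at 0.51, 0.401 and 0.427 CPM in the Vehicle libraries, 37.5, 19.8 and 33.6 with SAHA, 44.1, 54.9 and 58.5 with TSA and 0, 0 and 0 with A485. SAHA and TSA libraries were far above Vehicle, while A485 held no count. It rose by 6.08 with SAHA and 6.90 with TSA (log2; adjusted p = 4.47e-07 and 4.34e-08). Syngr1, a vesicle protein, fell in all 5 comparisons, by 0.57 with SAHA, 1.19 with TSA, 1.86 with A485, 0.95 with siP300 and 0.85 with siComb (adjusted p between 1.23e-06 and 0.016), and its SAHA call was lost without the second Vehicle library (0.0701) or the second (0.053) or the third (0.0744) SAHA library. Tubb2a, a beta-tubulin, rose by 1.58 with TSA (adjusted p = 1.36e-06). Of 26 proneural and neural progenitor genes, 8 were tested with inhibitors and 11 with siRNAs. The number that rose was 3 for SAHA, 7 for TSA, 1 for A485, 8 for siP300 and 7 with siComb, and 1 fell with siComb and 0 with each of the others. Of the 26, 16 were at 0 in all Vehicle libraries and 15 in all siControl libraries. A gene at 0 in its control can be tested only through groups where it is high, so these counts carry that selection. Pou4f1, a transcription factor of sensory neurons, stood at 0.816, 0.20 and 0.427 CPM in the Vehicle libraries, 4.15, 4.3 and 6.19 with SAHA, 12.4, 11.7 and 13.4 with TSA and 1.85, 1.97 and 0.374 with A485. After siRNA, Pou4f1 stood at 3.88, 2.19 and 2.1 CPM with siControl, 24.1, 18.2 and 44.3 with siP300, 34.8, 19.7 and 22.1 with siComb, 3.72, 4.07 and 3.15 with siKat6a and 4.68, 2.92 and 4.55 with siKat6b. It rose by 3.34 with SAHA, 4.73 with TSA, 3.41 with siP300 and 3.22 with siComb (adjusted p between 9.24e-06 and 0.000632). Sox11, a factor of neural progenitors, rose in the same 4, by 4.16 with SAHA, 6.56 with TSA, 4.13 with siP300 and 3.97 with siComb. Onecut2, a neural and hepatic factor, rose by 2.72 with TSA, 3.92 with siP300 and 3.80 with siComb.

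**Figure D5:**
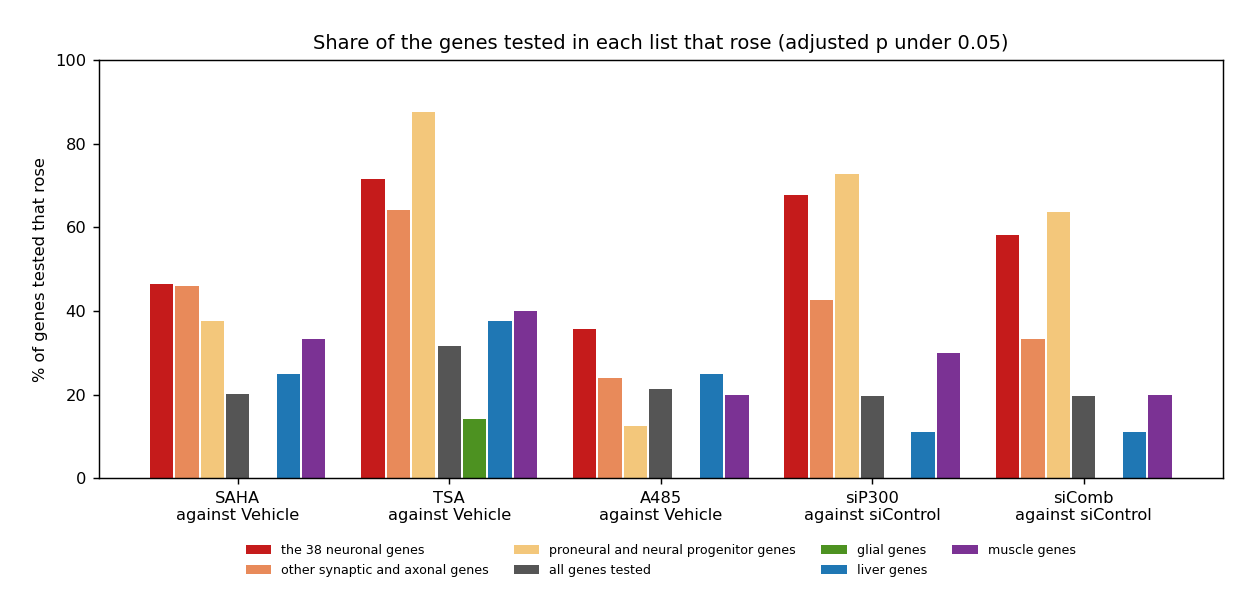
Share of the genes tested in each list that rose (adjusted p under 0.05, edgeR), from 0 to 100%, in 5 comparisons. Red bars stand for the 38 neuronal genes and grey bars for all genes tested. Blood and immune genes are not drawn: 62.5% rose with SAHA, 75% with TSA and 62.5% with A485, above the red bars. With siP300 and siComb 45.5% of them rose, below the red bars. The red bars stand at 71.4% with TSA and 35.7% with A485, above the grey bars at 31.6% and 21.4%, and glial genes show no bar but with TSA.

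Rest, which encodes the repressor itself, stood at 120.3, 143 and 145 CPM in the Vehicle libraries, 48.9, 67.7 and 73.3 with SAHA, 39.5, 37.4 and 46.4 with TSA and 43.2, 33.6 and 32.5 with A485. After siRNA, Rest stood at 119.6, 103 and 122.5 CPM with siControl, 95.9, 63.3 and 73.3 with siP300, 69.8, 95.5 and 98.5 with siComb, 116, 141 and 150.2 with siKat6a and 148, 116 and 116 with siKat6b. All SAHA, TSA and A485 libraries lay below all Vehicle libraries. Rest fell by 1.07 with SAHA, 1.66 with TSA, 1.86 with A485 and, in the siRNA family, 0.55 with siP300 (log2; adjusted p = 0.000694, 6.79e-06, 3.72e-06 and 0.0339). The siP300 call was lost without the first (0.0898) or the third (0.0981) siControl library or the second (0.115) or the third (0.103) siP300 library, under library size alone (0.36), in a fit of the 2 groups alone (0.0666) and without the 4 libraries of high MERVL (0.0946). The siComb value was −0.39 ± 0.19 (SE; adjusted p = 0.122). Of the 18 genes of REST and its partners, 3 rose and 6 fell with SAHA, 4 and 10 with TSA, 5 and 3 with A485, 3 and 3 with siP300, and 3 and 3 with siComb. As shares these were 16.7% and 33.3% with SAHA (20.2% and 14.0% of all genes) and 22.2% and 55.6% with TSA (31.6% and 26.6%). With A485 they were 27.8% and 16.7% (21.4% and 24.2%). With siP300 and siComb they were 16.7% and 16.7%, near those of all genes (19.7% and 15.7%, 19.6% and 17.1%). Hdac2, a deacetylase of the corepressors, rose by 0.98 with SAHA and 1.33 with TSA and fell by 0.82 with siP300 and 0.73 with siComb (adjusted p between 2.48e-05 and 0.0033). The summed level of the 18 genes was 893 to 941 CPM with Vehicle and 979 to 1022 with TSA, and 682 to 711 with siControl and 629 to 769.6 with siP300. Whether the levels of these genes bear on those of the neuronal genes was not tested.

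Genes of other tissues give the setting of these counts. Of all genes tested, 20.2% rose and 14.0% fell with SAHA, 31.6% and 26.6% with TSA, and 21.4% and 24.2% with A485. With siP300 the shares were 19.7% and 15.7%, and with siComb 19.6% and 17.1%. Of the 15 muscle genes tested with inhibitors and 20 tested with siRNAs, the numbers that rose and fell were 5 and 1 with SAHA, 6 and 1 with TSA, 3 and 3 with A485, 6 and 1 with siP300 and 4 and 3 with siComb. Of 8 and 9 liver genes tested, they were 2 and 2 with SAHA, 3 and 2 with TSA, 2 and 4 with A485, 1 and 3 with siP300 and 1 and 2 with siComb. Ttn, the giant protein of the sarcomere, and Myl4, a myosin light chain, rose in 4 comparisons each, and Myod1, the myogenic factor, fell with SAHA, TSA and A485. Trf, which encodes transferrin, rose by 2.45 with SAHA, 2.48 with TSA, 7.29 with A485, 5.77 with siP300 and 7.68 with siComb (log2), whereas Apoa1, an apolipoprotein of the liver, and Tat, a liver aminotransferase, fell in all 5. Of 7 and 8 glial genes tested, they were 0 and 2 with SAHA, 1 and 3 with TSA, 0 and 4 with A485, 0 and 2 with siP300 and 0 and 4 with siComb. Glial genes belong to the same tissue as the neuronal ones, and the 1 call that was higher came with TSA. Mbp, the myelin basic protein gene, fell in all 5 comparisons, by 1.81 with SAHA, 2.60 with TSA, 2.18 with A485, 1.38 with siP300 and 1.80 with siComb, Aldh1l1, an enzyme of astrocytes, fell in the same 5, and Slc1a3, an astrocyte glutamate transporter, fell with TSA, A485 and siComb. Of the 15 morula and blastocyst genes tested, the numbers were 1 and 12 with SAHA, 2 and 12 with TSA, 0 and 13 with A485, 0 and 11 with siP300 and 1 and 11 with siComb. The genes that rose were Zscan4c, by 5.56 with SAHA, 6.92 with TSA and 6.12 with siComb (log2), and Dppa3 with TSA. For Zscan4c the siComb libraries overlapped those of siControl, with a mean of 28.1 CPM and an SD of 48.3. Klf5, Gata3 and Id2, transcriptional regulators of the early embryo, fell in all 5 comparisons, Klf5 by 1.24 with SAHA, 2.43 with TSA, 3.84 with A485, 1.59 with siP300 and 1.28 with siComb.

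Cells other than blastomeres could be carried over with embryos, and their markers moved as well. Of 8 and 11 blood and immune genes tested, the numbers that rose and fell were 5 and 0 with SAHA, 6 and 2 with TSA, 5 and 1 with A485, 5 and 0 with siP300 and 5 and 0 with siComb. The summed level of all 18 was 26.2 to 28.9 CPM with Vehicle, 33.7 to 37.8 with SAHA, 60.4 to 98.8 with TSA and 51.7 to 85 with A485. It was 22.8 to 27.1 with siControl, 87.1 to 197 with siP300 and 137 to 187 with siComb. Much of that was Hba-a1, an alpha-globin gene, at 0.573 to 1.19 CPM with siControl and 27.9 to 102 with siP300, and Cd68, a lysosomal protein of macrophages, at 3.44 to 3.77 and 20.9 to 44.1. Both genes and the paralog Hba-a2 rose with TSA, A485, siP300 and siComb, and Hba-a1 and Hba-a2 rose also with SAHA. The Cd68 call with TSA was lost without the first (0.0879) or the second (0.122) Vehicle library or the first (0.0851) or the third (0.0753) TSA library and under library size alone (0.0553). The alpha-globin genes are near-identical copies, and reads could be split between them. Cd79a and Coro1a also rose in all 5 comparisons. In the same list, Csf1r fell with TSA, by 1.78 (log2, edgeR adjusted p = 0.00561). Spi1 fell with TSA and A485, by 1.56 and 1.28 (log2, edgeR adjusted p = 0.0115 and 0.033). Csf1r, Spi1, Cd14 and Lyz2 were not called with siP300 or siComb. Of the 18 genes, 5 never exceeded 2 CPM: Hbb-bs, Hbb-bt, Ptprc, Cd4 and Itgam. Hbb-bs, an adult beta-globin gene, and Itgam were at 0 in every library, and Ptprc, the pan-leukocyte CD45, never exceeded 0.417 CPM. Whether Hbb-bs and Itgam lie inside another gene of the same strand is not given here. Of the 3 cumulus and granulosa genes tested, which mark cells that surround the oocyte, the numbers were 0 and 1 with SAHA, 0 and 1 with TSA, 0 and 0 with A485, 2 and 0 with siP300 and 3 and 0 with siComb. The summed level of all 12 was 10.3 to 17.7 CPM with siControl, 36.1 to 48.5 with siP300 and 41.1 to 48.3 with siComb, and 19.8 to 28.6 with Vehicle, 7.82 to 11.1 with SAHA, 6.63 to 12.6 with TSA and 12 to 18.5 with A485. Tnfaip6 rose with siP300 and siComb, Amhr2 rose with both and fell with SAHA and TSA, and Foxl2 rose with siComb, a call lost without the first (0.0914), the second (0.0542) or the third (0.121) siControl library or the first (0.238) or the second (0.0531) siComb library and with no filter (0.0507). Of the 12, 9 never exceeded 2 CPM, Fshr, Amh, Cyp19a1, Has2 and Ptx3 among them. Of 2 and 4 oviduct and stromal genes tested, the numbers were 0 and 0 with SAHA, 2 and 0 with TSA, 0 and 0 with A485, 0 and 1 with siP300 and 0 and 0 with siComb. Col1a1 and Vim rose with TSA and Pdgfrb fell with siP300. The part of such cells in the neuronal levels was not tested. Of the defining neuron genes named above, Slc17a7 was the highest with TSA, at 3.17, 2.23 and 1.91 CPM against 0.204, 0.401 and 0 with Vehicle, and Gad2 the highest with siP300, at 1.52, 0.76 and 8.65 CPM against 0.612, 0.199 and 0.382 with siControl.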

How the data were processed

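RNA was measured in 27 libraries, 3 in each of 9 groups, given by the labels. The authors deposited raw counts per gene, with doses in the file headers, and 0 columns belonged to no sample. STAR 2.7.11a, featureCounts, Subread 2.0.6, MultiQC and Scanpy 1.8.2 are named per the submitters' processing notes, with the builds mm10 and GRCh38. Which annotation release was used, and how strand and read pairs were treated, is not stated there. Even numbers made up 83.3 to 85.9% of the counts above 0, and genes lying within a same-strand gene were mostly at 0, which bears on the counts of overlapping genes.

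The deposited counts entered edgeR 4.0.16 (R 4.3.3) for quasi-likelihood tests with TMM scaling, in 1 fit for the 12 inhibitor libraries and 1 for the 15 siRNA libraries, after a filter (filterByExpr, minimum count 10). All 27 libraries entered the fit of the difference between the siP300 and A485 effects. Adjusted p-values are Benjamini-Hochberg over all genes tested, with a threshold of 0.05, and 2 rows of MERVL were left out of totals and tests. Levels are CPM. Replicate libraries differed by more than sampling noise, with a chi-square of 7.61 to 43.6 per degree of freedom over 27 pairs. Floors (3 counts over a group) and intervals cover counting error only and take counts as independent. If both reads of a pair were counted, the intervals are too narrow, the floors too low and the bounds on fold too high. Positions, exon lengths and overlaps come from GENCODE vM21 and promoters from RefSeq on GRCm38.p6, matching mm10.

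Values in every library are written out for members with calls in at least 3 of the 7 comparisons with a control, or with a call and an absolute log2 fold change of at least 2, and the others are given by range and calls. From each other list up to 3 genes with the smallest adjusted p are named, and Rest always; 1 gene so chosen is not reported here. Some further genes of the blood and immune list and of the morula and blastocyst list are named for their direction. The members and lists were chosen with earlier results of these data known. The alternatives were library size alone, DESeq2 size factors, DESeq2's own test (1.42.0), halved counts, no filter, the 2 groups alone, a replicate block, and leaving out libraries. The procedure was tested on simulated data.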

Additional observations from a re-analysis of the deposited data

Results flagged for a closer look

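For 10 of the neuronal genes the effect of siP300 differed from that of A485 by the test of the difference (edgeR, all 27 libraries). The difference, siP300 minus A485 on the log2 scale, was 1.19 ± 0.42 (SE) for Uchl1, 1.37 ± 0.42 for Stmn3, 2.10 ± 0.55 for Grin1, 2.41 ± 0.64 for Ina, 3.13 ± 0.82 for Nefh, 3.59 ± 0.69 for Elavl3 and 4.05 ± 0.61 for Chga. It was −3.33 ± 0.68 for Bex3 and −2.29 ± 0.66 for Kif1a. For Stmn2 the fitted difference was 11.77 ± 2.7, which depends on the prior count since every A485 and every siControl library was at 0, and it gives no bound.

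The genes did not all differ in the same way. Uchl1, Bex3 and Kif1a rose with both agents and by different amounts, Stmn3 fell with both, and Elavl3, Nefh and Ina rose with siP300 and had A485 values of 0.16, −1.27 and −1.11 that were not called. Chga and Grin1 fell with A485, and their siP300 values of −0.59 and 0.44 were not called. The agents differ in timing, route and target range, which the design does not separate.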

How the results depend on the processing

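No call of a neuronal gene reversed its direction. Of 3318 values of single neuronal genes under alternatives, 3192 kept their side of the threshold, 78 lost a call and 48 gained one, and 192 of 208 counts stayed within 1.5 times the reported count. The rest concerned siKat6a and siKat6b, where few genes were called. Over all genes with siKat6a, 2 were called by DESeq2 and 15 with no filter, against 0. With siKat6b, 2 were called under DESeq2 size factors, 2 with halved counts, 2 with a replicate block, 59 in a fit of the 2 groups alone, 237 by DESeq2 and 755 with no filter, against 4. Leaving out single libraries gave 1 to 160 there, the highest without the second siKat6b library. The neuronal genes called with siKat6b were then 4 with no filter (Bex1, Bex2, Stmn2 and Syn2) and 1 in the fit of the 2 groups alone (Bex1), against 0. The cause of these differences was not tested.

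Leaving out single libraries left 12 to 15 neuronal genes called with SAHA, 18 to 21 with TSA, 12 to 15 with A485, 16 to 20 with siP300, 16 to 19 with siComb, 0 with siKat6a or siKat6b, and 8 to 11 for the difference between the siP300 and A485 effects. Over all genes, 4691 to 5228 were then called with SAHA, 9655 to 9970 with TSA and 7058 to 8001 with A485. In the siRNA family, 4716 to 6503 of all genes were called with siP300 and 5224 to 6830 with siComb. Same-numbered libraries did not deviate together in every pair of groups (correlations from −0.345 to 0.358), so the numbers are not taken as pairs. With a replicate block, 14 neuronal genes were called with SAHA, 20 with TSA, 13 with A485, 19 with siP300, 19 with siComb, 0 with siKat6a, 0 with siKat6b and 9 for the difference. Shares of all genes called with the block are not given beside these counts. Calls that passed the threshold without the block and not with it were Stmn3 with SAHA (adjusted p = 0.0568), Scg3 with TSA (0.0521), Sv2a with A485 (0.0542), Syp, Elavl2 and Sv2a with siP300 (0.0543, 0.0793 and 0.0521) and Uchl1 for the difference (0.0524). DESeq2 size factors moved the median of all genes by 0.14 (log2) with TSA, and library size alone by 0.25 for the difference and 0.10 with siKat6b.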
